A study of Mus musculus with 31 samples.

Results

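The 9 genes described here belong to the complement system and were read by symbol from the gene count tables of all 31 libraries of masseter muscle (MM) RNA. They are the C1q chains C1qa, C1qb and C1qc, the components C4b and C3, the alternative pathway factors Cfb and Cfp, and the receptors C3ar1 and C5ar1, and all 9 were found among the 22609 symbols of the tables. The MM of adult male C57BL/6J mice was injected with complete Freund's adjuvant (CFA), an oil emulsion of killed mycobacteria that inflames the tissue, with collagenase type 2 (Col), an enzyme that digests collagen, or with vehicle. The labels give 9 groups: CFA 1d (n = 3) and CFA 5d (n = 3) with their own CFA vehicle (n = 3), and Col 0.2U 1C (n = 4), Col 0.2U RPC (n = 4), Col 10U 2d (n = 4), Col 10U 6d (n = 3) and Col 10U 12d (n = 4) with a Contr vehicle (n = 3). The study's methods name phosphate-buffered saline as the vehicle, and they describe the Col enzyme as a crude preparation. The study's text and the labels differ on the day of the first and the last 10U collection, and the day names of the labels are used here. The labels do not say which day the 1C and RPC groups stand for, nor when the vehicle muscles were taken. No strain other than C57BL/6J, no transgene and no second treatment is listed for any group, and the labels do not state that each library came from a separate mouse, so that p-values measure the spread between these libraries.

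Complement is a cascade of plasma and tissue proteins that marks particles for uptake and calls in leukocytes. C1q, built from the A, B and C chains encoded by C1qa, C1qb and C1qc, binds immune complexes, dying cells and debris and starts the classical pathway, in which C4b supplies part of the enzyme that cleaves C3. C3 is the central component on which all routes converge; factor B, the product of Cfb, forms the alternative pathway's C3-cleaving enzyme, and properdin, the product of Cfp, stabilises that enzyme. The small fragments released on cleavage act through C3ar1, the C3a receptor, and C5ar1, the C5a receptor, on myeloid cells. In most tissues C1q is made by resident macrophages, whereas C3, C4 and factor B are also made by stromal and epithelial cells and rise in acute inflammation.

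Some libraries stood apart in ways that touch these genes. Gene reads per library ranged from 14843778 to 29076671. Skeletal muscle fibre markers were high in every library, with a score (the mean over 8 markers of log2 CPM, counts scaled to library size) between 11.67 in Col 10U 2d and 14.29 in CFA vehicle. The 8 salivary gland markers took between 0.00158% and 39.8% of a library's gene reads; they took 21.3 to 28.3% in CFA 5d and at most 3.27% in CFA vehicle, and they were high in replicates 2 and 3 of Contr vehicle, with scores of 8.61 and 7.36. Replicate 3 of CFA vehicle had a neutrophil score of 5.12, against -1.36 and -0.52 in the other CFA vehicle libraries, and a salivary score of 6.28. Replicate 4 of Col 10U 12d had a macrophage and monocyte score of 5.40, against 2.75 to 3.58 in the other 12d libraries, and the lowest muscle score of its group at 12.46. Reads that the counter set aside as ambiguous made up 0.675 to 0.875% in the 11 libraries of Col 10U and 0.147 to 0.317% in the 20 others, Contr vehicle included. Whether Col 10U and Contr vehicle were counted with the same strand setting is not given in the sources used here, and the part of a difference in counting in the Col 10U comparisons was not tested. No member has an exon that overlaps a gene on the other strand. In whole muscle, fewer cells of a type and less RNA per cell cannot be told apart.

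In the mouse build mm9 all 9 genes lie on the minus strand. The C1q genes sit side by side, C1qb at chr4:136436044-136442102, C1qc at chr4:136445719-136448980 and C1qa at chr4:136451832-136454718. C3 is at chr17:57343397-57367559, C4b at chr17:34865325-34880827, Cfb at chr17:34993319-34999463, C3ar1 at chr6:122797156-122806179, C5ar1 at chr7:16832092-16844889 and Cfp at chrX:20502580-20508681. C4b has a close paralogue, C4a, and 1273 of its 5737 50-base windows (22.2%) occur at more than 1 place in the genome. Its level thus depends on how such reads were assigned. Another 1916 of the windows cross exon junctions and could not be placed, so that 22.2% is a lower bound. For C3ar1 this share was 0.164% and for the other 7 members 0%, junction windows again not placed. Cfb shares exons with a read-through gene model, Gm20547, on the same strand. RefSeq promoter windows on GRCm38.p6 matched 6 of the 9 members, C1qa, C4b and Cfb being without one. The 200 bases before the transcription start are printed for C1qb and C1qc, which moved together, and for C3ar1, the member with the largest change. Capitals mark matches to the motifs searched.
C1qb, chr4:136886201-136886400, minus strand: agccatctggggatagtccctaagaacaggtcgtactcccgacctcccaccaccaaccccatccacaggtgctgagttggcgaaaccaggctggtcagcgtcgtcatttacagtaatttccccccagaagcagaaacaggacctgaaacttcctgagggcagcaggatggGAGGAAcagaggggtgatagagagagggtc
C1qc, chr4:136892915-136893114, minus strand: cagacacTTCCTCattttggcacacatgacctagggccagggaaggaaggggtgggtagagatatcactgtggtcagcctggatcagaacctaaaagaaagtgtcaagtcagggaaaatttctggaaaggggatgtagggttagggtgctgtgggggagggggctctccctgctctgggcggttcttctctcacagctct
C3ar1, chr6:122856158-122856357, minus strand: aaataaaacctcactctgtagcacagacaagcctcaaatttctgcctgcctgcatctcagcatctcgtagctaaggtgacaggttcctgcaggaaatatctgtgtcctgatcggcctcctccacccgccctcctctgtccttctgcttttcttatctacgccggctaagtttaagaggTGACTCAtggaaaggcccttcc
Over the 250 bases before each start, 5 short motifs were searched on both strands. GAGGAA is the core bound by PU.1, a transcription factor of the myeloid lineage. The others were TTCNNNGAA (STAT), TGANTCA (AP-1), TATAAA and the pattern TTGCNNCAA. Only these letters were searched, so sites with other letters or spacing were not covered. C1qb held GAGGAA from base -30 to -25 and C1qc held its reverse complement from -193 to -188, a motif present in 23.4% of the 32536 promoter windows of that length. C3ar1 held an AP-1 motif from -22 to -16, found in 6.73% of windows, and TATAAA from -235 to -230, outside the printed stretch and found in 12.3% of windows. None of the 5 motifs was in the C3, C5ar1 or Cfp window. TTGCNNCAA and the STAT motif, in 1.75% and 7.04% of all windows, were in none of the 6. A match is only a match of letters.

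Per kb of exon, C3 and the C1q chains were the most abundant members in vehicle muscle and the receptors the least. Mean levels in CFA vehicle, in CPM per kb of exon (RPKM), were 45.5 ± 21.6 (SD, n = 3) for C3, 30.2 ± 12.8 for C1qb, 27.9 ± 11.6 for C1qa and 15.2 ± 6.36 for C1qc. Cfp followed with 5.38 ± 2.30, then C4b with 2.68 ± 0.763, Cfb with 1.83 ± 0.854, C5ar1 with 1.43 ± 0.564 and C3ar1 with 0.805 ± 0.462. C3, C1qb and C1qa did not differ from their neighbours in this order by more than the larger SD, nor did C4b, Cfb and C5ar1, while the steps from C1qa to C1qc, from C1qc to Cfp, from Cfp to C4b and from C5ar1 to C3ar1 exceeded it. Contr vehicle gave the order C1qa, C3, C1qb, C1qc, Cfp, C4b, Cfb, C5ar1 and C3ar1. No member differed between the vehicle groups by edgeR's quasi-likelihood test (adjusted p = 1 for each, against 0.0355% of all 14070 genes tested called higher in Contr vehicle). At Col 10U 6d the order had changed: C1qa stood at 256 ± 87.1 RPKM and C1qb at 240 ± 82.6, C1qc at 89.7 ± 31.3, C3ar1 at 15.4 ± 6.87, C3 at 13.3 ± 7.04 and Cfp at 12.7 ± 3.81, and C5ar1 (5.74 ± 1.60), Cfb (4.60 ± 0.868) and C4b (1.63 ± 0.705) were lower.

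Against their own vehicles, members were called at Col 10U 6d, CFA 5d and Col 10U 2d. A member was called as a differentially expressed gene (DEG) at an adjusted p under 0.05 by edgeR with a fold change (FC) over 2 and a mean over 1 RPKM in a compared group. At Col 10U 6d, 6 of the 9 members were up-regulated, namely C1qa, C1qb, C1qc, C3ar1, C5ar1 and Cfp, where 8.11% of all genes tested were called higher. At CFA 5d, C4b and Cfb were up-regulated (2 of 9; 0.913% of all genes), and at Col 10U 2d only C3ar1 was (1 of 9; 0.946%). None passed at CFA 1d (0.0% of all genes), Col 0.2U 1C (0.0%), Col 0.2U RPC (0.0%) or Col 10U 12d (0.466%), and none was called lower than vehicle in any of the 7 comparisons. At CFA 1d, 5 members and 588 of all genes reached an unadjusted p under 0.05, and DESeq2 called Cfb. At Col 0.2U 1C this was 1 member of 1819 genes and at RPC none of 1923, with C3ar1 called by DESeq2 at 1C and no member at RPC. At Col 10U 12d it was 1 member of 2461 genes, and DESeq2 called C3 lower. The median log2 FC over the 9 members was 1.38 at CFA 1d, 1.07 at CFA 5d, 0.55 at 1C, 0.40 at RPC, 1.38 at Col 10U 2d, 1.91 at 6d and 0.16 at 12d, whereas the median over all genes tested lay between -0.02 and 0.02 in all 7.

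Counted by library values, 7 of the 9 members were higher in every Col 10U 6d library than in every Contr vehicle library, where 26.0% of all genes were. The count was 5 at Col 10U 2d (13.4% of all genes), 6 at CFA 5d (12.8%), 1 at CFA 1d (3.05%), 1 at RPC (4.79%), 0 at 1C (4.22%) and 0 at Col 10U 12d (9.16%). The RPC gene was C1qc, with a fitted log2 FC of 0.40 (SE 0.23, adjusted p = 0.456).

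**Figure D1:**
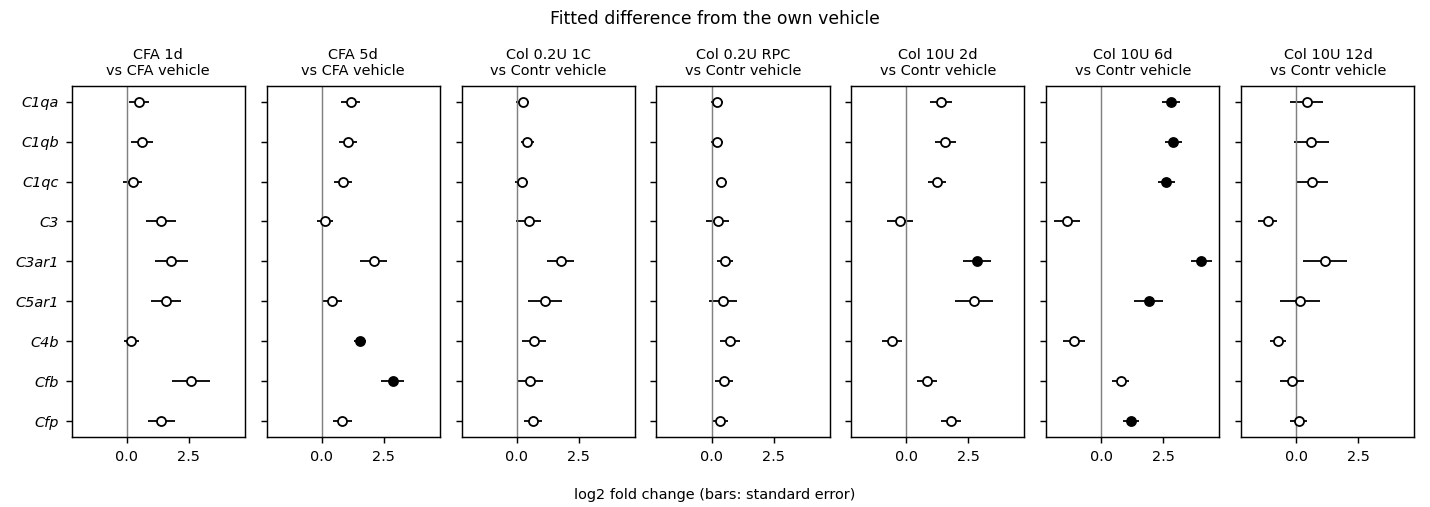
Fitted log2 FC of each member against its own vehicle in 7 comparisons (x axis; bars are standard errors, filled circles are called members). All 9 points lie right of 0 at CFA 1d, CFA 5d, 1C and RPC, while C3 and C4b lie left of 0 in the 10U panels, at -1.38 and -1.10 on day 6.

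The C1q chains, which together form the recognition molecule of the classical pathway, rose most at Col 10U 6d. C1qb was at 37.4, 23.9 and 41.7 CPM in the Contr vehicle libraries and at 257, 353 and 173 CPM at Col 10U 6d. The groups did not overlap, and the fitted difference was 7.41-fold (log2 FC 2.89, SE 0.34, adjusted p = 0.00292). At Col 10U 2d C1qb stood at 74.7, 110, 180 and 57.8 CPM, again above every vehicle library, with a log2 FC of 1.57 (SE 0.42) that did not pass (adjusted p = 0.0657). At Col 10U 12d it was at 20.2, 16.3, 35.8 and 131 CPM, so that 3 libraries lay within or below the vehicle range and replicate 4 lay above it.

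C1qa and C1qc followed C1qb closely. C1qa rose from 36.3, 24.7 and 50.4 CPM in Contr vehicle to 263, 358 and 176 CPM at Col 10U 6d (log2 FC 2.80, SE 0.36, adjusted p = 0.00400), and C1qc rose from 31.2, 18.3 and 33.3 CPM to 172, 234 and 114 CPM (log2 FC 2.61, SE 0.34, adjusted p = 0.00425). For both genes every 6d library was above every vehicle library, and replicate 2 was the highest. Over all 31 libraries C1qa reads varied 23.6-fold, while the ratio of C1qb to C1qa reads stayed between 0.824 and 1.30 and that of C1qc to C1qa between 0.599 and 1.07. The chains thus varied far less against each other than in level. They were called in the same direction at Col 10U 6d in all 14 alternative fits, with log2 FC for C1qb between 2.51 and 3.12.

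After CFA no C1q chain passed the test. C1qb stood at 17.1, 43.4 and 38.0 CPM in CFA vehicle, at 81.9, 32.3 and 38.5 CPM at CFA 1d and at 70.0, 48.9 and 81.2 CPM at CFA 5d. Every CFA 5d library was above every vehicle library, but the log2 FC of 1.07 (SE 0.36) did not pass (adjusted p = 0.237), and CFA 1d overlapped the vehicle with a log2 FC of 0.61 (SE 0.45, adjusted p = 0.924). C1qa gave a log2 FC of 1.17 (SE 0.39) and C1qc of 0.86 (SE 0.36) at CFA 5d, neither called, and without replicate 3 of CFA vehicle C1qa passed (log2 FC 1.34, SE 0.39, adjusted p = 0.0487). With 0.2U Col, C1qb was at 34.4, 48.8, 62.9 and 38.1 CPM in 1C and at 45.9, 31, 43.8 and 38.8 CPM in RPC, which overlapped the vehicle in both groups (log2 FC 0.43, SE 0.27, and 0.23, SE 0.24).

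The receptors rose after the higher Col dose, and C3ar1 rose furthest of all members. C3ar1 was at 5.10, 2.39 and 4.30 CPM in Contr vehicle, at 21.7, 28.0, 54.3 and 11.8 CPM at Col 10U 2d and at 60.9, 98.2 and 39.8 CPM at Col 10U 6d. Neither treated group overlapped the vehicle, with a 7.09-fold difference on day 2 (log2 FC 2.83, SE 0.56, adjusted p = 0.0483) and a 16.2-fold difference on day 6 (log2 FC 4.02, SE 0.42, adjusted p = 0.00223). The day 2 call was lost when any 1 of 6 of the 7 libraries was left out (log2 FC 2.32 to 3.08 over all alternatives) and held only without replicate 4 of Col 10U 2d, whereas C3ar1 at 6d was called in all 14 alternative fits, between 3.59 and 4.30 on the log2 scale. At Col 10U 12d it was at 2.65, 2.20, 4.09 and 25.6 CPM, with 3 libraries in or near the vehicle range and replicate 4 far above it (log2 FC 1.17, SE 0.89; -0.39, SE 0.40, without replicate 4).

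C5ar1, the receptor for C5a, had its highest values on day 2. It was at 3.44, 0.998 and 6.85 CPM in Contr vehicle, at 18.8, 29.4, 49.1 and 8.43 CPM at Col 10U 2d and at 12.4, 19.5 and 12.4 CPM at Col 10U 6d. All treated libraries of both days lay above the vehicle. The day 6 difference was 3.75-fold (log2 FC 1.91, SE 0.59, adjusted p = 0.0476), and the larger day 2 estimate, 2.73 (SE 0.77), did not pass (adjusted p = 0.0697). Replicate 4 of Col 10U 2d was the lowest of its group for both receptors, C1qa, C1qb and Cfp. Without it C1qa, C1qb, C1qc, C5ar1 and Cfp passed as well, as they did with DESeq2, so that 6 members were called. Of all genes, 1349 of 14160 were called higher without that library and 981 of 14373 with DESeq2, against 136 in the reported fit. At Col 10U 12d C5ar1 was at 1.92, 1.35, 3.77 and 9.64 CPM and overlapped the vehicle (log2 FC 0.16, SE 0.80).

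The ratio of C3ar1 to C5ar1 reads was highest at Col 10U 6d and CFA 5d. It was 3.22 to 5.03 in the Col 10U 6d libraries and 2.46 to 3.75 in the CFA 5d libraries. In Col 10U 2d it was 0.955 to 1.40 and in CFA 1d 0.863 to 1.55. The vehicles gave 0.627 to 1.07 (CFA) and 0.627 to 2.40 (Contr), 1C 1.17 to 1.95, RPC 0.841 to 1.58 and Col 10U 12d 1.09 to 2.66. Col 10U 6d and CFA 5d thus lay above the first group of the same treatment and above their vehicles without overlap, while Col 10U 12d overlapped Col 10U 2d, Contr vehicle and CFA 5d; the pattern was noticed in these libraries and not tested. The neutrophil score, over markers of a cell type that carries C5ar1, was -1.28 to -0.40 in CFA 5d and 0.29 to 0.73 in Col 10U 6d against 2.49 to 4.60 in CFA 1d and 2.46 to 4.62 in Col 10U 2d. Outside CFA 5d and Col 10U 6d it was at most 0.73 in replicates 1 and 2 of CFA vehicle (-1.36 and -0.52, ratios of 0.627 and 0.956). The same held for replicate 2 of Contr vehicle (-0.15, ratio 2.40) and replicate 3 of RPC (-0.85, ratio 1.58), each the highest ratio of its group. Replicates 2 and 3 of Col 10U 12d scored 0.36 and 0.20, with 36 and 76 reads of C3ar1 and 22 and 70 of C5ar1. Replicate 3 gave the lowest ratio of its group, 1.09. Replicate 4 had the group's highest ratio, 2.66, and its highest neutrophil score, 3.07. Over the 31 libraries the correlation of the score with log2 CPM of C5ar1, not with the ratio, was 0.42. The part of neutrophil content in the ratio was not tested.

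**Figure D2:**
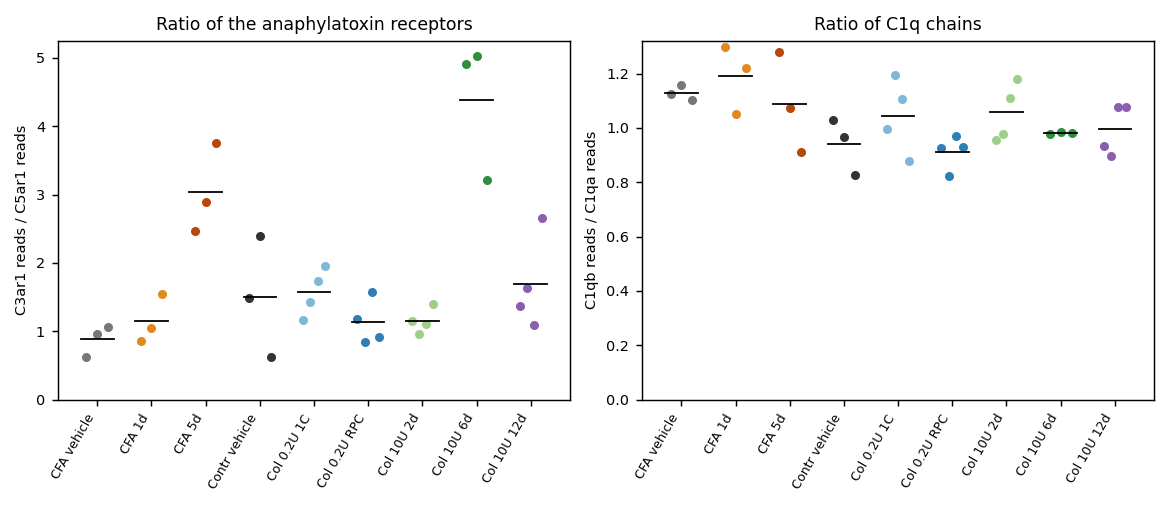
Ratio of C3ar1 to C5ar1 reads (left) and of C1qb to C1qa reads (right) in each library by group (points; lines are group means). The receptor ratio is at least 2.46 in all CFA 5d and Col 10U 6d libraries, and the C1q ratio stays between 0.824 and 1.30.

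After CFA, C3ar1 was at 1.29, 3.92 and 5.19 CPM in vehicle, 17.5, 3.96 and 15.4 CPM at 1d and 15, 8.76 and 19.6 CPM at 5d. The 1d libraries overlapped the vehicle through replicate 2, whereas the 5d libraries did not. The log2 FC was 1.80 (SE 0.67, adjusted p = 0.924) at 1d and 2.10 (SE 0.54, adjusted p = 0.126) at 5d. The 5d difference passed with DESeq2 and without replicate 3 of CFA vehicle (2.56, SE 0.49, adjusted p = 0.00757). C5ar1 was at 2.06, 4.10 and 4.86 CPM in CFA vehicle, 20.2, 3.78 and 9.91 CPM at 1d and 6.09, 3.02 and 5.23 CPM at 5d, with overlap on both days. In 1C, C3ar1 was at 4.62, 14.7, 24.3 and 10.5 CPM, with replicate 1 inside the range of Contr vehicle (log2 FC 1.78, SE 0.55, adjusted p = 0.285), and in RPC at 6.75, 4.05, 6.38 and 5.70 CPM (log2 FC 0.55, SE 0.33).

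Scores of cell type markers differed beside these genes. The macrophage and monocyte score, over 10 markers that include no member, was 2.43 to 3.93 in Contr vehicle, 4.85 to 6.12 at Col 10U 2d, 5.64 to 6.41 at 6d and 2.75 to 5.40 at 12d. Of its 10 markers, 1 was called higher at Col 10U 2d, 9 at 6d and 0 at 12d, with a median log2 FC of 2.78 at 6d. The muscle fibre score was 13.47 to 14.10 in Contr vehicle, 11.67 to 12.84 at Col 10U 2d and 11.85 to 12.82 at 6d. Both scores thus changed with the C1q chains and C3ar1 at Col 10U 2d and 6d, and their part in the changes was not tested. After CFA the macrophage and monocyte score was 3.42 to 5.38 at 1d and 3.61 to 4.67 at 5d against 1.75 to 4.01 in vehicle.

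**Figure D3:**
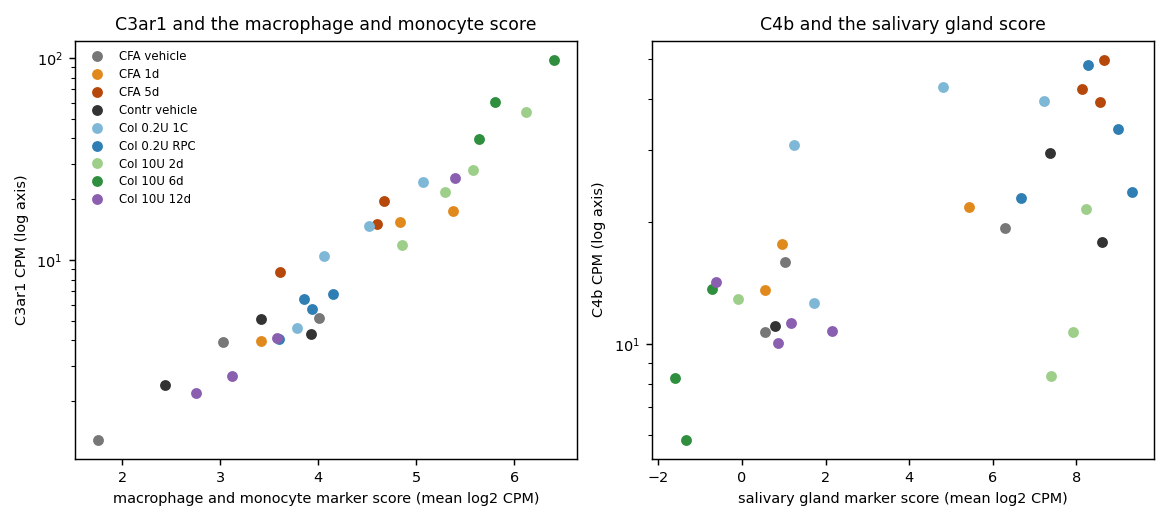
C3ar1 CPM against the macrophage and monocyte score (left) and C4b CPM against the salivary gland score (right), both on a log y axis, with 1 point per library coloured by group (n = 31). C3ar1 runs from 1.29 CPM at a score of 1.75 to 98.2 CPM at 6.41, and the 3 CFA 5d libraries combine salivary scores of 8.14 to 8.66 with C4b of 39.4 to 49.9 CPM.

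C4b, a component of the classical and lectin pathways, was higher at CFA 5d than in vehicle and than at CFA 1d. It was at 10.7, 15.9 and 19.3 CPM in CFA vehicle, 21.7, 13.6 and 17.6 CPM at CFA 1d and 49.9, 39.4 and 42.2 CPM at CFA 5d. The 5d libraries lay above all vehicle and 1d libraries, by 2.95-fold over vehicle (log2 FC 1.56, SE 0.25, adjusted p = 0.0440) and 2.57-fold over 1d (1.36, SE 0.20, adjusted p = 0.0106). The 5d libraries were also those with salivary scores of 8.14 to 8.66, against 0.56, 1.03 and 6.28 in vehicle. In 1 fit of all 31 libraries with that score as a covariate, added after the data were seen, the C4b difference at 5d was 1.06 (SE 0.43) and did not pass (adjusted p = 0.636). That fit called 0 of all 15526 genes at CFA 5d. Without the score, the fit of all 31 libraries called 28 genes higher, Cfb among them but not C4b. Within Contr vehicle, C4b was 11.1 CPM in the library with a salivary score of 0.80 and 17.8 and 29.5 CPM in those with 8.61 and 7.36.

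At the higher Col dose no C4b difference from vehicle passed the test. It was at 8.36, 10.7, 12.9 and 21.5 CPM at Col 10U 2d, 5.84, 8.28 and 13.7 CPM at 6d and 10.8, 11.3, 10.1 and 14.2 CPM at 12d, each overlapping Contr vehicle. The day 6 log2 FC was -1.10 (SE 0.43, adjusted p = 0.0929). Of 14 alternatives 3 called it lower, namely DESeq2, the fit of all 31 libraries and the replicate block. With the salivary score as a covariate in edgeR, C4b gave -0.52 on day 6 (SE 0.45, adjusted p = 0.423). In 1C it was at 42.8, 12.6, 39.5 and 30.9 CPM and in RPC at 22.9, 23.6, 33.8 and 48.3 CPM, with log2 FC of 0.70 (SE 0.47) and 0.73 (SE 0.40), neither called. Whether the CFA effect on day 5 differed from the 10U effect on day 6 was tested directly: the difference of the log2 FC was 2.66 for C4b (SE 0.55, adjusted p = 0.0150) and -1.82 for C1qb (SE 0.53, adjusted p = 0.0488). The C4b effect of CFA was thus the higher one and the C1qb effect of CFA the lower one. Of all 14892 genes in that test, 6.16% were called higher and 3.76% lower. The C1qb call was lost in the fit of all 31 libraries (-1.90, SE 0.79, adjusted p = 0.121), with the replicate block (-1.81, SE 0.58, adjusted p = 0.0800) and in 9 of 12 fits that each left out 1 library, all but those without replicate 1 of CFA vehicle, replicate 3 of Contr vehicle or replicate 3 of Col 10U 6d. The C4b call was lost in 1 of those 12, without replicate 2 of Col 10U 6d (2.56, SE 0.62, adjusted p = 0.0505). With the salivary score as a covariate neither passed, at 1.58 for C4b (SE 0.70, adjusted p = 0.337) and -1.22 for C1qb (SE 1.01, adjusted p = 0.613). In that fit 18 of all 15526 genes were called higher and 23 lower.

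C3, the component on which all pathways converge, was not called in any comparison with vehicle. In CFA vehicle it was at 196, 358 and 146 CPM, at CFA 1d at 1200, 323 and 311 CPM and at CFA 5d at 200, 228 and 313 CPM. The day 1 mean rested on replicate 1, and the log2 FC of 1.38 (SE 0.59) had an adjusted p of 0.924 by edgeR. In Contr vehicle C3 was at 137, 89.1 and 292 CPM, at Col 10U 2d at 63.2, 117, 222 and 195 CPM, at 6d at 42.9, 51.8 and 110 CPM and at 12d at 70.7, 69.7, 96.4 and 69.7 CPM. The 6d and 12d libraries lay low but overlapped the vehicle through its replicate 2, at 89.1 CPM, with log2 FC of -1.38 (SE 0.52, adjusted p = 0.0831) and -1.16 (SE 0.38, adjusted p = 0.198). DESeq2 called both lower, and the replicate block, pooled vehicles and the fit without replicate 2 of Contr vehicle called C3 lower at 6d. With 0.2U Col, C3 ranged from 115 to 410 CPM over the 8 libraries, across the vehicle range.

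Cfb, the protease of the alternative pathway, had the largest rise after CFA. It was at 2.46, 6.02 and 7.07 CPM in CFA vehicle, 66.1, 7.87 and 22.1 CPM at CFA 1d and 29.7, 25.2 and 54.7 CPM at CFA 5d. All 6 CFA libraries lay above all vehicle libraries. The 5d difference was 7.26-fold (log2 FC 2.86, SE 0.47, adjusted p = 0.0461), and the 1d difference, 2.60 (SE 0.76), did not pass by edgeR (adjusted p = 0.924), with replicate 1 highest. With the salivary score as a covariate the 5d estimate was 2.28 (SE 0.64, adjusted p = 0.466), in a fit that called 0 of 15526 genes at CFA 5d. Leaving out any single library other than replicate 3 of CFA vehicle ended both CFA 5d calls, whereas without that library 4 members were called, C1qa, C3ar1, C4b and Cfb. The number over all genes moved likewise. Without replicate 3 of CFA vehicle 991 of 13819 genes were called higher, and 0 to 20 genes were in each of the other leave-outs.

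Under Col, no Cfb difference passed. It was at 4.75, 6.52 and 11 CPM in Contr vehicle, 7.06, 19.2, 15.4 and 12.9 CPM at Col 10U 2d, 11, 15.7 and 12.2 CPM at 6d and 4.71, 3.61, 5.49 and 12.2 CPM at 12d. The 6d libraries lay at or just above the highest vehicle library, and the log2 FC of 0.77 (SE 0.34) did not pass (adjusted p = 0.118). The difference between the CFA 5d and Col 10U 6d effects was 2.09 (SE 0.62, adjusted p = 0.0512), just outside the threshold. In 1C Cfb was at 8.90, 5.20, 21.0 and 8.29 CPM and in RPC at 8.76, 7.41, 11.3 and 14.6 CPM, overlapping the vehicle.

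Cfp, which encodes properdin, rose at Col 10U 6d as the receptors did. It was at 9.15, 6.25 and 12.8 CPM in Contr vehicle, 28.1, 34.4, 52.4 and 18.9 CPM at Col 10U 2d and 20.6, 29.4 and 16.4 CPM at 6d, with no overlap on either day. The day 6 difference was 2.29-fold (log2 FC 1.20, SE 0.32, adjusted p = 0.0328), and the day 2 estimate was larger at 1.78 (SE 0.40) with an adjusted p of 0.0540. C5ar1 and Cfp at Col 10U 6d were each called in 8 of 14 alternative fits. With the salivary score neither passed, while C1qa, C1qb, C1qc and C3ar1 did. In CFA vehicle Cfp was at 4.88, 10.5 and 12.6 CPM, at CFA 1d at 43.6, 11.7 and 19.8 CPM and at CFA 5d at 17.3, 11.7 and 19.8 CPM, overlapping on both days. In Col 10U 12d, 1C and RPC it ranged from 6.60 to 23.0 CPM, and each group overlapped the vehicle.

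**Figure D4:**
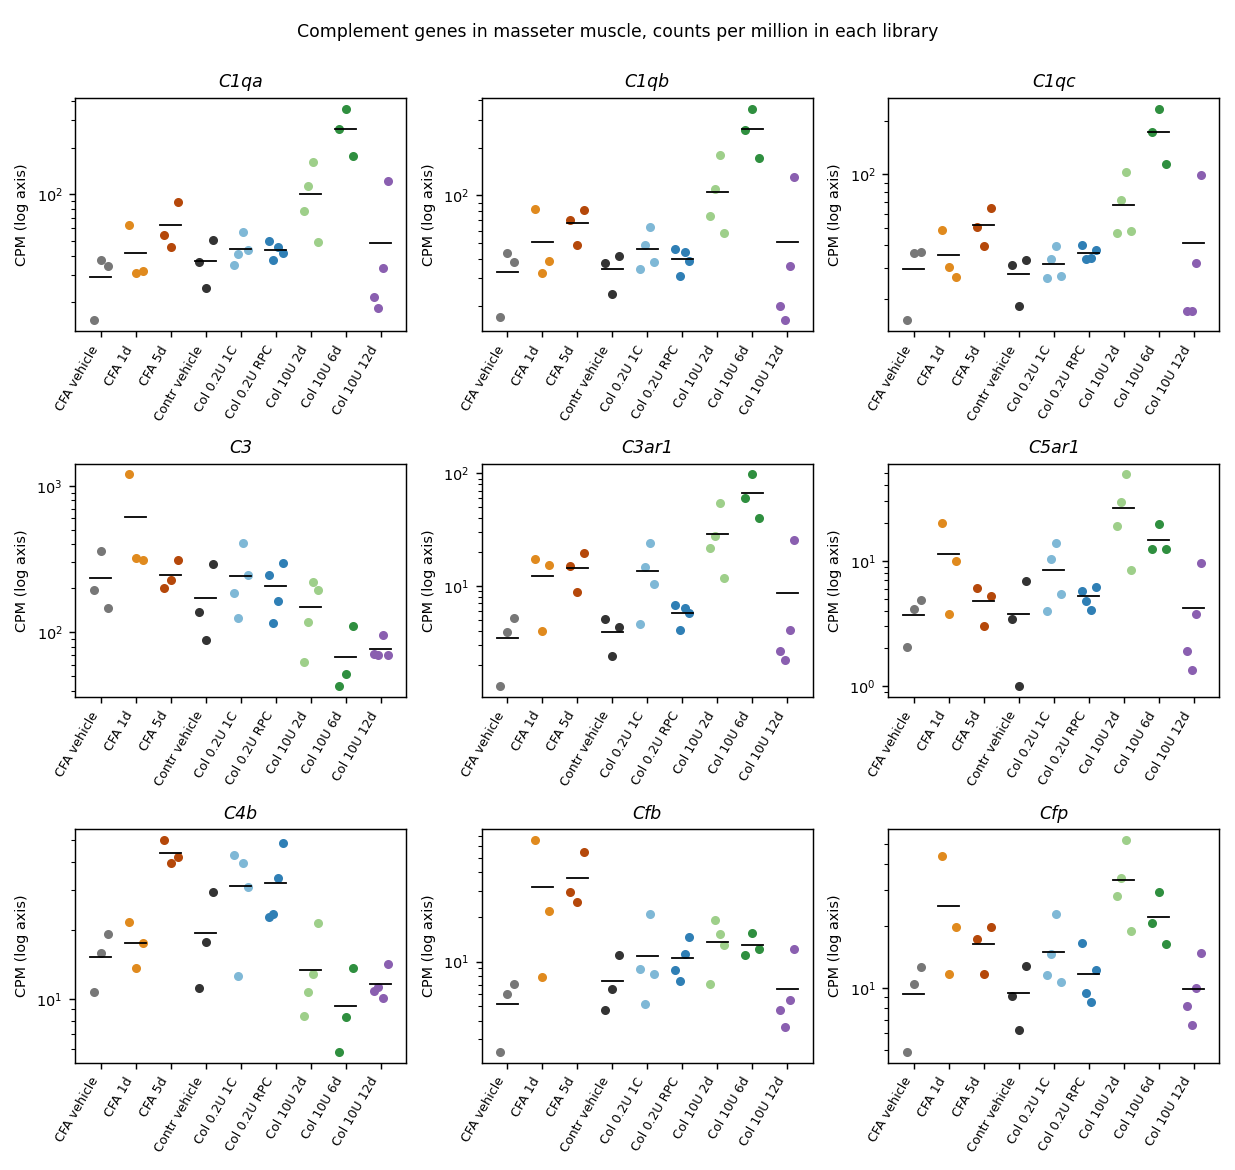
CPM of the 9 members in each of the 31 libraries (log y axis, each panel with its own range) by group; points are libraries and lines are group means. The C1q chains and C3ar1 are highest at Col 10U 6d, C5ar1 and Cfp at Col 10U 2d, and C4b and Cfb at CFA 5d, while replicate 4 of Col 10U 12d stands above its group for C1qa (121 CPM) and C3ar1 (25.6 CPM).

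Between time points of 1 treatment, C4b was the 1 member that differed between CFA 5d and CFA 1d (3.70% of all genes called higher, 0.634% lower), a call lost without replicate 1 of CFA 5d (log2 FC 1.24, SE 0.22, adjusted p = 0.0616). From Col 10U 2d to 6d, C1qc rose 2.59-fold, from 46.7, 71.7, 103 and 47.9 CPM to 172, 234 and 114 CPM (log2 FC 1.38, SE 0.34, adjusted p = 0.0482; 2.91% of all genes called higher and 2.32% lower), a call that held without replicate 3 or 4 of Col 10U 2d and was lost without any 1 of the 5 other libraries. C1qa and C1qb gave similar estimates, 1.42 (SE 0.41, adjusted p = 0.0707) and 1.32 (SE 0.41, adjusted p = 0.0871), while C5ar1 and Cfp had estimates below 0, at -0.82 (SE 0.53) and -0.58 (SE 0.35), not called. From Col 10U 6d to 12d, 5 members fell, where 5.09% of all genes were called lower and 4.61% higher: the log2 FC was -2.91 for C3ar1 (SE 0.84, adjusted p = 0.0410), -2.43 for C1qa (SE 0.66), -2.34 for C1qb (SE 0.71), -2.05 for C1qc (SE 0.63) and -1.14 for Cfp (SE 0.29). Replicate 4 of Col 10U 12d carried much of the spread: without it 7 members were called lower, C3ar1 at -4.46 (SE 0.38, adjusted p = 0.000347), and without any other single library 0 or 1 was. Of all genes, 1594 of 14194 were called lower without that replicate and 70 to 476 in the other leave-outs. The CFA 1d effect was not called different from the Col 10U 2d effect for any member (0.0406% of all genes called higher), with 0 members and 1011 of all genes at an unadjusted p under 0.05 and 0 members by DESeq2. The estimate furthest from 0 was 1.79 for Cfb (SE 0.88, adjusted p = 0.733).

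Among the 15526 genes with enough reads, those whose log2 CPM followed a member most closely over the 31 libraries were, for C1qa, Unc93b1 (Pearson r = 0.970), 9030625A04Rik (0.947) and Sirpa (0.941). C1qb was led by Unc93b1 (0.972), Sirpa (0.952) and Tnfaip8l2 (0.946), and C1qc by Unc93b1 (0.959), 9030625A04Rik (0.933) and Asah1 (0.931). C3ar1 was closest to Ctss (0.977), Tlr1 (0.964) and Fcer1g (0.956), C5ar1 to Fcgr3 (0.948), Inpp5d (0.947) and Cotl1 (0.946), and Cfp to Lilrb3 (0.942), Ccl6 (0.929) and Lrrc33 (0.927). The other components had looser companions: Cadm3 (0.791), Lbp (0.787) and Darc (0.779) for C3, Tmem102 (0.832), Ntrk2 (0.824) and Ugt1a6a (0.813) for C4b, and Zbp1 (0.846), Shisa5 (0.814) and Slfn2 (0.812) for Cfb. These values describe the 31 libraries, which share groups, depth and tissue makeup.

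Of 45 other complement genes in the tables, 23 to 26 were tested per comparison and few were called. At Col 10U 6d, Itgax, a subunit of complement receptor 4, was higher than in Contr vehicle (mean 12.2 ± 3.06 CPM, n = 3, against 1.28 ± 1.01; log2 FC 3.21, SE 0.59, adjusted p = 0.0111). Cfd, the adipocyte protease that activates factor B, was lower (42.1 ± 12.2 against 114 ± 63.8 CPM; log2 FC -1.46, SE 0.43, adjusted p = 0.0430; 7.27% of all genes were called lower), and the adipocyte score was 2.45 to 3.55 against 3.93 to 5.11. That made 1 higher and 1 lower of 24 tested, where 8.11% of all genes were called higher. At CFA 5d, 1 of 24 was called, where 0.913% of all genes were called higher. It was Gm5077, which RefSeq names C1s2 and whose exons overlap C1s, at 3.53 ± 1.31 against 0.32 ± 0.158 CPM (log2 FC 3.47, SE 0.52, adjusted p = 0.0397). Salivary scores were 8.14 to 8.66 in CFA 5d and 0.56 to 6.28 in CFA vehicle, and their part in this difference was not tested. At CFA 1d, 1C, RPC, Col 10U 2d, Col 10U 12d and between the vehicles 0 of 23 to 26 were called, with 1 to 8 at an unadjusted p under 0.05. The 8 were among 25 tested at Col 10U 2d, where 4781 of all 14373 genes reached that p. The 1 was between the vehicles, where 326 of 14070 genes did.

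Between time points, C2, which adjoins Cfb and supplies a part of the classical C3-cleaving enzyme, was higher at CFA 5d than at 1d (13.5 ± 2.58 against 6.23 ± 1.55 CPM; log2 FC 1.16, SE 0.26, adjusted p = 0.0427). From Col 10U 2d to 6d, Itgax rose (1.67, SE 0.36) and Clu, which encodes the inhibitor clusterin, fell by 3.26 (SE 0.79, adjusted p = 0.0450). From 6d to 12d, Itgam and Itgb2, the chains of complement receptor 3, fell (log2 FC -2.14, SE 0.50, and -2.14, SE 0.56), and Colec11, a lectin pathway recognition protein, rose by 1.45 (SE 0.31, adjusted p = 0.0186). The CFA 5d effect exceeded the Col 10U 6d effect for Gm5077 (6.48, SE 0.68) and C2 (1.73, SE 0.49), where 6.16% of all genes were called higher. All 6 salivary gland markers tested were called higher in that test too. Salivary scores were 8.14 to 8.66 in CFA 5d, 0.54 to 5.42 in CFA 1d and -1.60 to -0.71 in Col 10U 6d. The part of salivary gland content in the Gm5077 and C2 differences was not tested.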

How the data were processed

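RNA-seq libraries (poly(A), stranded kit, 50-base single-end reads) were sequenced from the MM, and per the labels the authors used bcl2fastq, TopHat2 and HTSeq with the mm9 build; versions and the strand setting of the counter are not given in the sources used here. The deposited values are whole-number read counts per gene symbol, not normalised. The 9 CFA tables and the 22 Col tables write their summary lines differently, and whether all were counted alike is not given.

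CPM used TMM factors from edgeR 4.0.16 (R 4.3.3), and RPKM divided CPM by the exon length of GENCODE vM1 models. The length was found for 21627 symbols by name and 52 by synonym, and 930 without a model took the median of 2842 bases. Each comparison was fitted on its own libraries with edgeR's quasi-likelihood test, for genes reaching 10 counts in 3 or more of them, and p-values were adjusted over all genes tested (Benjamini-Hochberg). Called genes had an adjusted p under 0.05, an FC over 2 and a mean over 1 RPKM in a compared group; for differences between effects the RPKM rule was left out. The fit was tested on simulated counts. Alternatives were DESeq2 1.42.0, its size factors, no count filter, 1 fit of all libraries, a replicate block, pooled vehicles, no RPKM rule, each library left out and, added later, the salivary score as a covariate. No library pair of 465 held identical counts. Deviations of same-numbered libraries from their group means correlated positively for every number only in CFA 1d against CFA vehicle (r = 0.164, 0.256 and 0.591) and between the vehicles (0.205, 0.115 and 0.677). The labels state no pairing, and these values do not show that the libraries were paired.

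All 9 members are named with their values in every comparison with vehicle, other complement genes by counts and every called one (at most 6 per comparison) except 1 that is not reported here, and for each member the 3 non-members with the highest Pearson r. The members, lists and tests were chosen with earlier results of these data known. Promoter sequences are from RefSeq (GRCm38.p6). The smallest member counts were 15 reads for C5ar1 in replicate 2 of Contr vehicle and 22 reads in replicate 2 of Col 10U 12d, so C5ar1 had the fewest reads of the members.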

Additional observations from a re-analysis of the deposited data

Results flagged for a closer look

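In Col 10U 12d, a group of 4 libraries, 1 library lay far from the others for 4 members by Dixon's test at the 95% level, which chance alone meets in about 1 of 20 groups; 36 such sets of 4 were examined. Replicate 4 was the high library for C1qa (121 CPM), C1qb (131 CPM) and C3ar1 (25.6 CPM), and replicate 3 for C3 (96.4 CPM, where the other 3 lay between 69.7 and 70.7). Replicate 4 also had a macrophage and monocyte score of 5.40 and a fibroblast score of 9.83, against at most 3.58 and 8.53 in the other 12d libraries. Its part in the result was not tested beyond leaving it out.

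The effects of CFA at 5d and of Col 10U at 6d differed by the test of the difference itself for C4b, by 2.66 on the log2 scale, and for C1qb, by -1.82; the C1qb call was lost in the fit of all 31 libraries, with the replicate block and in 9 of 12 fits that left out 1 library. The CFA 5d libraries had salivary gland scores of 8.14 to 8.66 and the Col 10U 6d libraries -1.60 to -0.71.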

How the results depend on the processing

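Of 96 counts of called members under other settings that leave no library out, 75 were within 1.5 times the reported count. Settings where both counts were 0 are among those 75, and where the reported count was 0 every setting but DESeq2 also gave 0. Higher and lower calls were added together, so the replicate block at Col 10U 6d, with 4 higher and 2 lower, is also among them. DESeq2 called 1 member at CFA 1d, 1 at 1C, 6 at Col 10U 2d, 1 at 12d, 3 from Col 10U 2d to 6d and 6 between the later effects. Over all genes DESeq2 called 45 higher at CFA 1d, 258 at 1C, 981 at Col 10U 2d and 607 from Col 10U 2d to 6d. It called 195 lower at 12d and, between the later effects, 1234 higher and 939 lower. The size factors of DESeq2 in edgeR left 0 members at CFA 5d, as did pooled vehicles, where 53 and 0 of all genes were called higher. Pooled vehicles gave 7 members at Col 10U 2d, with 1158 of all genes higher. In 1 fit of all 31 libraries the count was 1 at CFA 5d and 6 at Col 10U 2d. It was 0 between CFA 5d and 1d and 1 between the later effects. That fit called 28 and 982 of all genes higher at CFA 5d and Col 10U 2d. With the salivary score, a choice made after seeing the data, the 4 member counts were 0, 6, 0 and 0. With the score the count was also 0 from Col 10U 2d to 6d. Over all genes the fit with the score called 0 and 992 higher at CFA 5d and Col 10U 2d. With the replicate block the counts were 1 at CFA 5d, 6 at Col 10U 2d and 0 from 2d to 6d. Over all genes the block called 122, 1395 and 627 higher there. At Col 10U 6d it called 4 members higher and 2 lower, with 698 and 534 of all genes. In the fit of all 31 libraries and with pooled vehicles 1 member was also lower at 6d, and 2 were with DESeq2. Of all genes, 1162, 1180 and 1270 were lower in those fits. In CFA 1d against CFA vehicle and between the vehicles, where same-numbered libraries had positively correlated deviations, the count was 0 with and without the block. No pairing is stated for any comparison, and the replicate numbers are only shared.

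Leaving out 1 library at a time, the count ran from 0 to 4 at CFA 5d, 0 to 6 at Col 10U 2d, 4 to 7 at Col 10U 6d, 0 to 2 between CFA 5d and 1d, 0 to 4 from Col 10U 2d to 6d, 0 to 7 from 6d to 12d and 0 to 5 between the later effects, and it was 0 throughout for the other 6 comparisons. The numbers over all genes moved too. From 0 to 991 genes were called higher at CFA 5d and 10 to 1349 at Col 10U 2d. From 6d to 12d, 70 to 1594 were called lower.

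In the comparisons with vehicle no called member reversed in sign. Uncalled ones did so in 29 of 737 refits. At Col 10U 12d the replicate block gave log2 FC of -0.57 for C1qa, -0.53 for C1qb, -0.32 for C1qc, -0.36 for C3ar1, -0.47 for C5ar1 and -0.13 for Cfp. The salivary score gave -0.03 for C3 at CFA 5d and, at 12d, -0.06 for C5ar1 and 0.32 for Cfb; pooled vehicles gave 0.06 for Cfb. Leave-one-out ranges that crossed 0 were, at 12d, -0.60 to 0.74 (C1qa), -0.50 to 0.87 (C1qb), -0.32 to 0.86 (C1qc), -0.39 to 1.46 (C3ar1), -0.69 to 0.97 (C5ar1), -0.68 to 0.28 (Cfb) and -0.18 to 0.42 (Cfp). At CFA 1d they were -0.06 to 0.48 (C1qc) and -0.01 to 0.44 (C4b), at CFA 5d -0.09 to 0.56 (C3), at 1C -0.02 to 0.37 (C1qc), at RPC -0.001 to 0.56 (C1qa) and -0.08 to 0.92 (C3), and at Col 10U 2d -0.63 to 0.35 (C3). The causes were not tested. C5ar1 and C3ar1 had the fewest reads, 15 and 32 in their lowest libraries; at 3 or 4 libraries a group, differences short of the threshold are not shown to be absent.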
